A study of Mus musculus with 26 samples.

Results

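The decay of 10 mRNAs of the BMP/TGF-beta pathway was followed in mouse oligodendrocyte progenitor cells (OPCs) and in the oligodendrocytes (OLs) made from them. The 10 genes were taken by symbol, with earlier results of these data known. They comprised 4 receptors (Bmpr1a, Tgfbr1, Bmpr2 and Acvr2a) and 6 Smads (Smad1, Smad5, Smad2, Smad3, Smad4 and Smad7), each represented by 1 canonical coding transcript. All 10 were listed among the 9751 transcripts of OLs. The 8530 transcripts of OPCs held 9 of them, because Smad7 was not listed there, so every comparison of the cell types rests on 9 members among the 8177 transcripts listed for both. In all, 10104 transcripts were listed. The authors left out transcripts by their level, under 1 FPKM (a level corrected for length) at 0 h or without signal early in the chase, so a gene that is not listed may still be transcribed at a low level. Whether Smad7 fell to this filter in OPCs is not given.

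The OPCs were derived from epiblast stem cells of strain 129S/SvEv and were grown with the mitogens PDGFA (20 ng/mL) and bFGF (20 ng/mL). The OLs were OPCs that had been passaged without bFGF and then moved to a differentiation medium that held neither mitogen but T3 (thyroid hormone), IGF-1, NT3, cyclic AMP and 100 ng/mL noggin, a secreted protein that binds BMPs and blocks their signalling. No BMP or TGF-beta ligand is named in either medium. Both cell types then took up 5-ethynyluridine (5-EU), a uridine analogue to which biotin can be coupled, for 24 h, starting after 40 h of differentiation in the OLs. The analogue was replaced by uridine, and labelled RNA was pulled down and sequenced at 0, 1, 2, 4 and 6 h of this chase in 3 OPC replicates and 2 OL replicates. A further OPC library without biotin was not analysed here. The study states that some cells of the differentiated cultures stay undifferentiated, so an OL value is that of a mixed culture. Each OL replicate shares its starting cells with 1 of the OPC replicates, but which numbers correspond is not given. Also, in bulk RNA fewer cells with a transcript and less of it per cell cannot be told apart.

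BMPs, TGF-betas and activins bind pairs of serine/threonine kinase receptors at the cell surface. The type II receptors, among them Bmpr2 and Acvr2a, activate the type I receptors, among them Bmpr1a for BMPs and Tgfbr1 for TGF-betas, and these phosphorylate serines at the very end of the receptor-regulated Smads. Smad1 and Smad5 relay BMP signals and Smad2 and Smad3 relay TGF-beta and activin signals, all of them enter the nucleus with the common partner Smad4, and the inhibitory Smad7 blocks the receptors in a feedback loop. In the oligodendrocyte lineage, BMP signalling is known to hold back differentiation and to favour astrocytes.

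The end of the coding sequence shows what joins the receptor-regulated Smads and where their mRNAs differ. The last 30 coding bases of 3 of them, with the stop codon, are given 5′ to 3′ from GENCODE M21 (GRCm38), with serine codons among the last 5 codons in capitals. They lie at chr8:79339649-79339678 (minus strand, exon 7 of Smad1), chr13:56737449-56737478 (plus strand, exon 7 of Smad5) and chr9:63650262-63650291 (minus strand, exon 9 of Smad3).
Smad1: ccccacaatcctattTCATCCgtgTCTtaa
Smad5: ccgctgaaccccattTCTTCTgttTCAtag
Smad3: ccgagcatccgctgtTCCAGTgtgTCTtag
The receptor transcripts lie at chr14:34410734-34502687 (Bmpr1a, minus strand, 13 exons), chr4:47353222-47414931 (Tgfbr1, plus strand, 9 exons), chr1:59763400-59879014 (Bmpr2, plus strand, 13 exons) and chr2:48814109-48903269 (Acvr2a, plus strand, 11 exons). All 3 Smad sequences ended in the same arrangement of a pair of serine codons, 1 other codon and a further serine codon, though no pair of mRNAs used the same codons throughout.

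Sequence stretches linked to mRNA decay were counted in the 3′ UTRs of the same annotation. ATTTA, the core of AU-rich elements, was present in 8 of the 9 members with an annotated 3′ UTR, against 69.9% of 9981 listed transcripts. Bmpr2 held 35 copies in 8529 bases, and its density of 4.10 per kilobase was at the 89.5th percentile. By density, 5 of the 9 were above the median of all transcripts. Smad1 held none in 1254 bases, and Smad2 had no annotated 3′ UTR. The longer TTATTTATT, each copy of which also contains ATTTA, occurred once in Smad5 and once in Bmpr2 and in 7.85% of all 3′ UTRs. These 2 windows of 29 bases are shown with the match in capitals, at chr13:56739085-56739113 (plus strand, exon 7 of Smad5) and chr1:59874125-59874153 (plus strand, exon 13 of Bmpr2).
Smad5: ttctgtgccaTTATTTATTgcctttcaga
Bmpr2: ttaaaaaattTTATTTATTtaatgtatga
TGTANATA (N for any base), the letters bound by Pumilio proteins, was found in Tgfbr1 (2 copies) and in Smad1, Smad7, Bmpr1a and Acvr2a (1 copy each), and in 26.8% of all 3′ UTRs. Searches were on the transcript strand only. Such a match describes the letters and shows no binding. In length, all 9 annotated 3′ UTRs of members were above the median of 1096 bases over all 10104 transcripts, where a missing one counted as 0 bases. They ranged from those of Smad4 (1249 bases) and Smad1, close to the median, to that of Bmpr2 at the 99.5th percentile.

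FPKM, a read coverage corrected for transcript length and library size, gives the level per length, and the values of each time point were scaled by the authors to labelled RNA added to each sample. The 0 h columns carry the decimals of unscaled FPKM, so whether levels at 0 h are on the spike-in scale is not certain. The labels were checked against markers. The summed level of 6 oligodendrocyte markers was 37.6 to 55.1 FPKM in the OPC libraries, where 2 of them were listed, and 2744 and 5996 FPKM in the OL libraries. Of the OPC markers, Cspg4 was at 35.7 to 55.7 FPKM in OPCs and 29.9 and 30.7 FPKM in OLs, whereas Pdgfra, the receptor for PDGFA, went against its label and was higher in OLs (43.9 and 66.9 against 11.5 to 26.5 FPKM). Astrocyte markers (4 listed of 5) summed to 356 to 437 FPKM in OPCs and to 267 and 386 FPKM in OLs. Gfap, the defining one, was at 6.86 and 8.12 FPKM in OLs and not listed for OPCs. Neuronal markers (3 listed) summed to 81.8 to 183 FPKM in OPCs and to 203 and 189 FPKM in OLs, both above the OPC libraries. Markers of the whole oligodendroglial lineage (3 listed) summed to 1350.4 to 1412 FPKM in OPCs and to 964 and 785 FPKM in OLs. Most of this sum was Olig1 (1009 to 1079 FPKM in OPCs, 635 and 506 FPKM in OLs). Olig2 was also lower in OLs (218 and 189.6 against 316 to 332 FPKM). Sox10 went the other way (111 and 89.0 FPKM in OLs against 4.06 to 25.4 FPKM). The part of cells with astrocyte or neuronal markers in the results was not tested. No microglial, endothelial, mesenchymal or pluripotent marker was listed. Over all transcripts the median half-life ran from 2.05 to 2.79 h in OPCs and was 4.05 and 4.15 h in OLs, and the share of transcripts listed at 0 at 6 h was 15.7% to 21.6% and 0.790% and 4.08%, so late values are less well measured in OPCs. Read counts cannot be recovered from these values, so their counting error is unknown.

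Before the chase, no member was shown to differ in labelled level between the cell types. By limma, 0 of 9 passed an adjusted p of 0.05, against 31.6% of the 8177 transcripts tested, and none had an unadjusted p under 0.05. In none of the 9 did the replicates of OLs lie wholly above or wholly below those of OPCs, which was the case for 28.0% and 31.4% of all transcripts. The median difference (OL over OPC) was 0.05 on the log2 scale for the 9 members and -0.01 for all transcripts. These differences are on the log2(FPKM + 1) scale, and an adjusted p that misses the threshold does not show that levels are equal.

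Among the type I receptors, Bmpr1a stood at 27.8, 48.6 and 31.3 FPKM in OPC replicates 1, 2 and 3 and at 42.1 and 67.5 FPKM in OL replicates 1 and 2. OL replicate 2 was above every OPC library, but OL replicate 1 was below OPC replicate 2. The log2 difference of 0.60 ± 0.28 (SE) did not pass (adjusted p = 0.136, limma). It passed without OPC replicate 2, where it was 0.83 (adjusted p = 0.0303), and was 0.93 (adjusted p = 0.116) without OL replicate 1 and 0.27 (adjusted p = 0.634) without OL replicate 2. Tgfbr1 was at 23.7, 35.1 and 26.8 FPKM in OPCs and at 25.1 FPKM in both OL replicates, inside the OPC range.

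Of the type II receptors, Bmpr2 was at 22.1, 53.5 and 40.6 FPKM in OPCs and at 35.1 and 40.9 FPKM in OLs, and Acvr2a, which also binds activins, at 6.77, 21.7 and 14.2 FPKM and at 15.7 and 18.6 FPKM. Both differed more between OPC replicates than between cell types. OPC replicate 2 was the highest and replicate 1 the lowest of the OPC libraries in 7 of the 9 members, as in 28.4% of all transcripts. The 2 exceptions were Smad1 and Smad3.

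Smad5 and Smad4 were the most abundant Smads. Smad5 was at 43.0, 56.8 and 45.6 FPKM in OPCs and at 46.8 and 48.0 FPKM in OLs, a difference of -0.02 ± 0.19. Smad4 was at 31.6, 47.4 and 43.0 FPKM and at 36.3 and 40.6 FPKM, a difference of -0.06 ± 0.22. In each, both OL values fell inside the OPC range. The BMP-type Smad1 was at 14.6, 14.2 and 17.5 FPKM in OPCs and 11.6 and 17.9 FPKM in OLs, so the OL replicates lay on either side of the OPC libraries. Smad1 was below its close relative Smad5 in every library.

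Of the TGF-beta-type Smads, Smad2 was at 10.9, 29.2 and 18.6 FPKM in OPCs and at 17.8 and 25.4 FPKM in OLs. Smad3 was at 13.5, 10.5 and 12.9 FPKM and at 11.2 and 16.9 FPKM. Both overlapped between cell types, with differences of 0.22 ± 0.37 and 0.16 ± 0.28. Smad7 was at 18 and 11.3 FPKM in OLs, close to Smad1 and Smad3. By their means, the order in OPCs was Smad5, Smad4, Bmpr2, Bmpr1a, Tgfbr1, Smad2, Smad1, Acvr2a and Smad3, and each neighbour in that order overlapped with the next. In OLs the order was Bmpr1a, Smad5, Smad4, Bmpr2, Tgfbr1, Smad2, Acvr2a, Smad1, Smad7 and Smad3, with a gap only between Smad5 and Smad4 and between Bmpr2 and Tgfbr1.

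**Figure D1:**
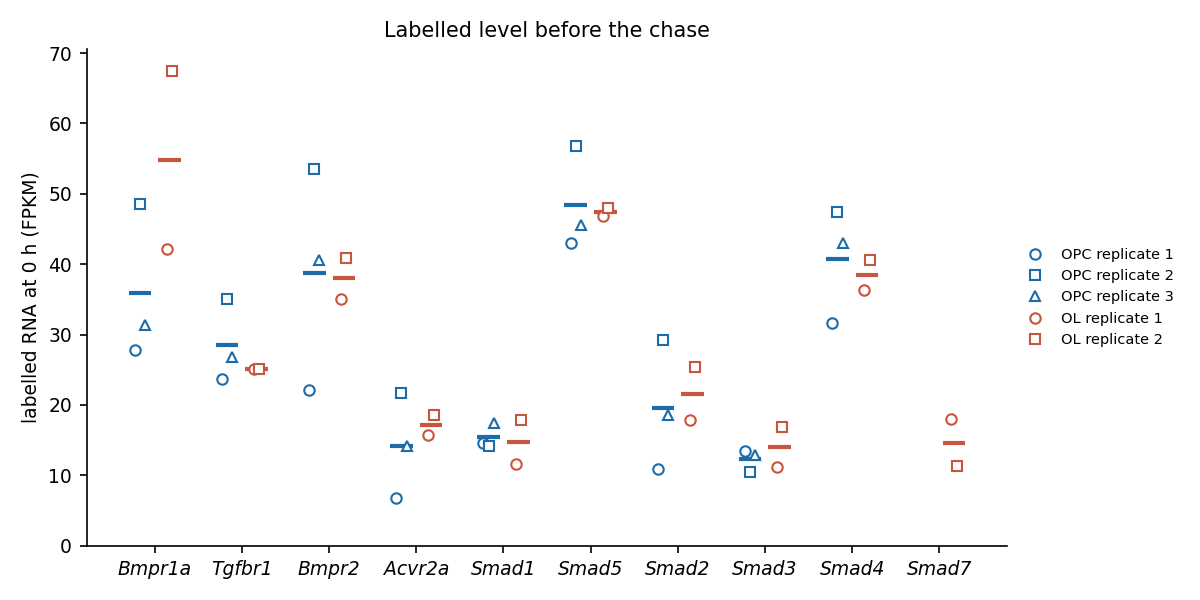
Labelled RNA at 0 h (FPKM, linear axis from 0) of the 10 members, with 1 symbol per replicate (OPC blue, 3 replicates, and OL red, 2 replicates) and a bar at each mean. The replicates of both cell types overlapped in all 9 members listed for both, Bmpr1a reached 67.5 FPKM in OL replicate 2, and Smad7 had values in OLs only.

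During the chase, labelled RNA of every member declined. A slope of log2(FPKM + 1) over time was negative and passed in 9 of 9 members in OPCs, against 81.7% of 8530 transcripts, and in 10 of 10 in OLs, against 65.1% of 9751 (limma). The members' median slope was -0.49 per hour in OPCs and -0.36 per hour in OLs, beside -0.38 and -0.20 over all transcripts. These counts depend on the spike-in scale. With each library scaled to the 0 h median of its replicate, 3 members (Smad1, Smad2 and Smad3) still fell and Bmpr2 rose in OPCs (0.17 per hour, adjusted p = 0.0104), and 4 fell in OLs (Tgfbr1, Acvr2a, Smad4 and Smad5). On that scale 24.7% of all transcripts fell and 33.5% rose in OPCs, and 15% fell in OLs.

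Tgfbr1 was lost fast in both cell types. In OPC replicates 1, 2 and 3 it was at 26.4%, 44.2% and 80.8% of its 0 h level at 2 h and at 5.80%, 3.51% and 7.79% at 4 h, and in OL replicates 1 and 2 at 32.1% and 44.2% at 2 h and at 13.1% and 13.8% at 4 h. The median transcript was at 20.4% to 39.0% at 4 h in OPCs and at 55.0% and 55.4% in OLs, so Tgfbr1 was below it in every library at 4 h. At 4 h both OL values of Tgfbr1 were above the OPC values, and at 6 h both were below them (5.93% and 5.53% against 11.5%, 6.56% and 11.1%), as in 48.7% and 2.86% of all transcripts. At 1 h, Bmpr2 and Acvr2a had both OL values below the OPC values, as had 4.99% of all transcripts. The slope of Tgfbr1 was -0.60 ± 0.08 per hour in OPCs and -0.59 ± 0.05 in OLs. Acvr2a was also low in OLs, with 32.5% and 33.7% left at 2 h and 16.3% and 13.0% at 4 h, while its OPC replicates ranged from 5.11% to 33.6% at 4 h.

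Bmpr2 had the highest mean share of its label left at 4 h of all members in both cell types (70.5% ± 30.5 in OPCs, SD, n = 3, and 60.6% ± 3.84 in OLs, SD, n = 2). In OPCs it was at 94.4%, 96.3% and 128% of 0 h at 2 h and at 98.2%, 37.8% and 75.6% at 4 h, above the median transcript of the same library each time. In OLs it was at 67.0% and 60.7% at 2 h and at 63.3% and 57.9% at 4 h, close to the median transcript at 4 h. All 3 OPC values at 2 h were thus above both OL values, as in 11.7% of all transcripts, whereas at 6 h the cell types overlapped (29.4%, 18% and 28.9% against 29.4% and 33.9%). Bmpr1a was at 62.6%, 93.0% and 112% at 2 h in OPCs and at 62.7% and 80.1% in OLs. At 4 h it was at 27.3%, 14.8% and 29.6% against 39.4% and 53.4%, with both OL values above the OPC values.

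Smad2 and Smad3 were retained to a larger part in OLs than in OPCs at 4 h. Smad2 was at 7.86%, listed at 0 and 11.4% in OPC replicates 1, 2 and 3 at 4 h, and at 29.8% and 57.7% in the OL replicates. Smad3 was at 13.2%, 6.37% and 5.20% in OPCs and at 53.8% and 43.9% in OLs. In both genes the lower OL value was more than the highest OPC value, and the same held at 6 h, where Smad2 was listed at 0 in OPC replicates 1 and 2 and at 7.58% in replicate 3, against 15.2% and 27.9%. Of all 8177 transcripts, 48.7% at 4 h and 48.9% at 6 h also had both OL values above all OPC values, as had 7 and 3 of the 9 members. Smad3 was then at 4.31%, listed at 0 and 11.6% in OPCs and at 31.6% and 22.0% in OLs.

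The BMP-type Smads and Smad4 followed. Smad1 was at 16.0%, 2.75% and 19% at 4 h in OPCs and at 30.6% and 31.1% in OLs. Smad5 was at 25.1%, 12.3% and 18.8% in OPCs and at 25.1% and 30.8% in OLs, and Smad4 at 25.8%, 15.1% and 28.6% and at 33.9% and 40.2%. All 3 were thus higher in both OL replicates than in any OPC replicate at 4 h, for Smad5 by less than the digits printed. Smad7 had the steepest early loss of all members in OLs, with 24.8% and 57.0% left at 1 h and 13.3% and 21.6% at 2 h, and then 15.7% and 7.19% at 6 h.

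**Figure D2:**
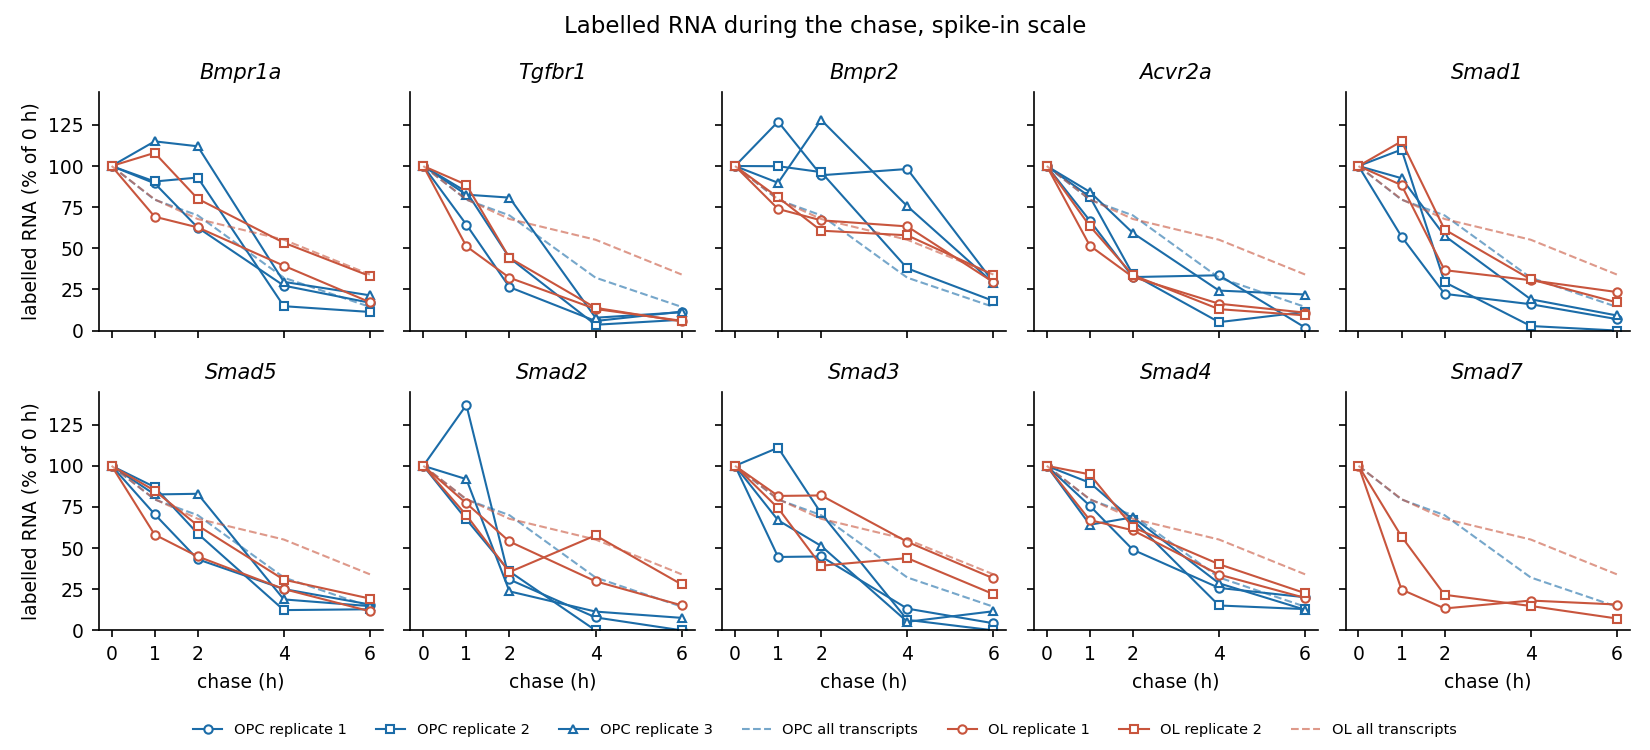
Labelled RNA as a percentage of its 0 h level (linear axis) against hours of chase for each member, with 1 line per replicate (OPC blue, OL red) and dashed lines for the mean over replicates of the median over all transcripts. Smad2 and Smad3 at 4 h lie at 13.2% or less in OPCs and at 29.8% or more in OLs, Tgfbr1 and Acvr2a fall below the dashed line of OLs, and Bmpr2 in OPCs lies above its dashed line.

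The deposited half-lives, fitted by the authors to each replicate as a single exponential with a ceiling of 6 h, put most members below the median mRNA. The median over members was 1.72, 1.96 and 2.17 h for the 3 OPC replicates and 2.30 and 2.64 h for the 2 OL replicates. Among the 8112 transcripts with a half-life in all 5 replicates, 8 of 9 members ranked below the 50th percentile in each OPC replicate and 9 of 9 in each OL replicate. Bmpr2 in OPCs was the exception.

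Of the OL half-lives, 5 of 9 members (Bmpr1a, Smad1, Smad2, Smad3 and Smad4) had both values above all OPC values, as did 35.9% of all transcripts, and 0 had both below, as did 2.01%. None of the 9 passed (limma on log2 half-life), against 3.54% of transcripts, while 3 members (and 23.0% of transcripts) were under 0.05 before adjustment. The change had a median of 0.40 for the members and 0.37 for all transcripts. Half-lives were longer in OLs for the typical mRNA, and centring each replicate on its median takes 0.90 off every change. After this step Smad1 (-0.15), Smad4 (-0.50), Smad5 (-0.88) and Bmpr1a (-0.25) turned to the other sign, and only Smad2 (0.19) and Smad3 (0.17) stayed above 0. The median over all transcripts was then -0.53, so the typical mRNA turned in the same way.

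Smad2 had half-lives of 1.18, 1.35 and 1.28 h in OPCs and of 2.25 and 3.26 h in OLs. Both OL values lay above all OPC values. The change was 1.10 ± 0.20 (2.14-fold, adjusted p = 0.0897 by limma). For Smad3 the values were 1.37, 1.96 and 1.73 h and 4.48 and 2.75 h, a change of 1.07 ± 0.30 (2.11-fold, adjusted p = 0.168). The OL replicates of Smad3 differed from each other by more than the OPC replicates did.

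Smad4 had close replicates, with 2.05, 2.03 and 2.21 h in OPCs and 2.56 and 2.97 h in OLs. Its change was 0.40 ± 0.09 (1.32-fold, adjusted p = 0.118). Smad1 was at 1.24, 1.13 and 1.96 h and at 2.34 and 2.38 h, a change of 0.75 ± 0.29 (1.68-fold, adjusted p = 0.265). Without OPC replicate 3 the change of Smad1 was 0.99, just past the threshold (adjusted p = 0.05). Its relative Smad5 was at 2.01, 2.02 and 2.17 h and at 1.73 and 2.53 h, with the OL values on either side of the OPC values and a change of 0.02 ± 0.19.

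Of the receptors, Bmpr1a was at 2.34, 1.96 and 2.70 h in OPCs and at 2.97 and 4.42 h in OLs (1.57-fold, adjusted p = 0.270), and this direction turned when the 6 h libraries were left out of the fit (-0.15 on the log2 scale). Tgfbr1 was at 1.04, 1.70 and 1.96 h and at 1.22 and 1.70 h, and Acvr2a at 1.72, 1.29 and 2.66 h and at 1.23 and 1.36 h. Both overlapped between cell types, with OL means below the OPC means. Bmpr2 was at the 6 h ceiling in OPC replicates 1 and 3, at 2.85 h in replicate 2, and at 3.46 and 3.85 h in OLs. Its OPC mean is therefore a lower bound, and the change of -0.36 ± 0.43 became -1.18 with a ceiling of 24 h (adjusted p = 0.533). Smad7 was at 0.498 and 1.23 h in OLs, the shortest mean of the 10.

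**Figure D3:**
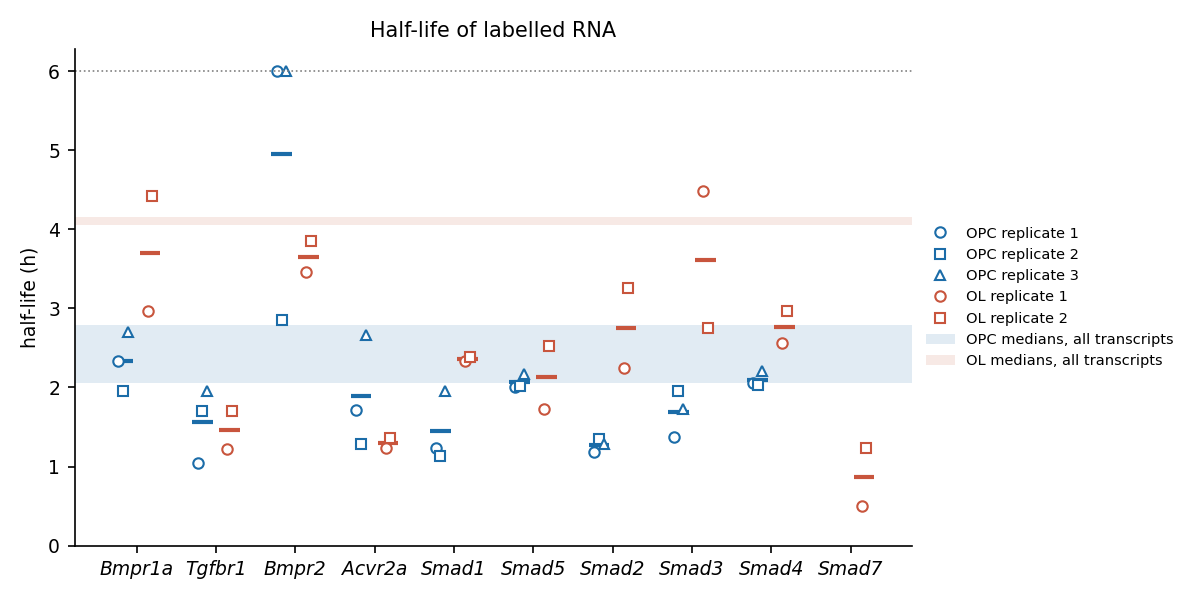
Half-lives in hours (linear axis from 0) of the 10 members per replicate, with bars at the means, shaded bands from the lowest to the highest replicate median of all transcripts in OPCs (blue) and OLs (red), and a dotted line at the 6 h ceiling. The OL means of all 10 members lie under the OL band, both OL values of Smad1, Smad2, Smad3, Smad4 and Bmpr1a lie above their OPC values, and Bmpr2 meets the ceiling in 2 OPC replicates.

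In 4 of the 47 member half-lives the value was the same, 1.96 h: Smad3 and Bmpr1a in OPC replicate 2 and Smad1 and Tgfbr1 in OPC replicate 3. It is the value that least absolute deviations give whenever the 1 h and 2 h points lie above the curve and the 4 h and 6 h points below it, whatever their heights, and all 4 members had that pattern. Within 0.001 h of it were 2.18%, 25.6% and 7.45% of all half-lives of OPC replicates 1, 2 and 3, but 0.474% and 1.38% of those of OL replicates 1 and 2. A half-life of 1.96 h in OPC replicate 2 thus says little of how far a member fell.

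Ranks within a replicate do not change if all its half-lives are multiplied by a common factor. An error in the scale of a single time point can still move them, through the fit and the ceiling. Each half-life was also placed among the 8112 transcripts, from 0 (shortest) to 100. By rank, 5 of 9 members (Bmpr2, Acvr2a, Smad5, Smad4 and Tgfbr1) had both OL values below all OPC values, as did 30.6% of transcripts, and 1 (Smad2) had both above, as did 15.3%. None passed (limma), against 0.284% of transcripts, while 4 members (and 17.5% of transcripts) were under 0.05 before adjustment. The change had a median of -13.1 percentile points for the members and -2.35 for all transcripts.

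Bmpr2 ranked at 87.8, 60.7 and 84.2 in OPCs and at 40.2 and 43.7 in OLs, a change of -35.6 ± 9.56 points (adjusted p = 0.167). Acvr2a ranked at 32.8, 10.8 and 47.4 and at 6.90 and 2.20, a change of -25.8 ± 11.7 points (adjusted p = 0.312). In both type II receptors the OL ranks lay below all OPC ranks, and neither change passed. Tgfbr1 ranked at 11.4, 17.1 and 29.2 in OPCs and at 6.60 and 5.74 in OLs. Bmpr1a, the other type I receptor, changed by less than its error (-0.627 ± 8.98 points). Its rank of 29.7 in OPC replicate 2, at the shared 1.96 h, was 34.0 when half-lives were rounded to 0.001 h before ranking, and its change was then -2.06 points.

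Smad5 ranked at 43.8, 48.6 and 38.7 in OPCs and at 15.9 and 22.2 in OLs, a change of -24.6 ± 5.06 points (adjusted p = 0.112, limma). Smad4 ranked at 44.7, 48.9 and 39.8 and at 26.8 and 30.4, a change of -15.8 ± 4.67 points. For Smad4 the OL values thus lay above the OPC values in hours and below them in rank, and neither change passed (adjusted p = 0.118 and 0.195). Smad2 went the other way, from 15.9, 11.6 and 11.3 to 22.1 and 35.2 (15.7 ± 5.55 points, adjusted p = 0.254). Smad3 and Smad1 overlapped between cell types, with changes of 8.14 ± 11.3 and 2.23 ± 7.92 points. The same rounding took the rank of Smad3 in OPC replicate 2 from 45.2 to 34.0 and its change to 11.9 points.

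**Figure D4:**
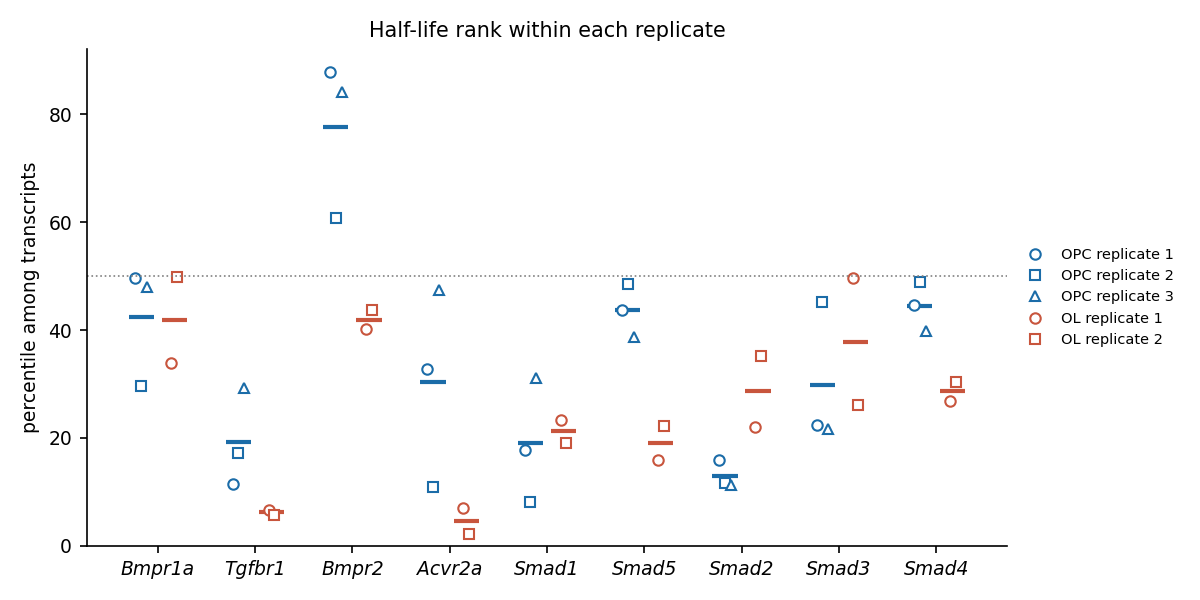
Half-life percentile of the 9 members listed for both cell types (0 shortest, 100 longest, among 8112 transcripts), per replicate with bars at the means and a dotted line at the 50th percentile. Bmpr2, Acvr2a, Smad5, Smad4 and Tgfbr1 lie lower in OLs in every replicate, Smad2 lies higher, and all OL values are under the line.

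The decline itself was compared in a model with all 25 libraries and no ceiling. Smad2 and Smad3 fell more slowly in OLs than in OPCs, and these 2 of 9 members passed, against 27.5% of 8177 transcripts. Smad2 fell by 0.72 on the log2 scale per hour in OPCs and by 0.31 in OLs, a difference of 0.41 ± 0.12 per hour (adjusted p = 0.0105, limma). Smad3 fell by 0.56 in OPCs and by 0.26 in OLs, a difference of 0.30 ± 0.09 per hour (adjusted p = 0.0108). With a pseudocount of 0.1 in place of 1 these differences were 0.81 and 0.55 per hour (adjusted p = 0.00554 and 0.00673), and the OPC slope of Smad2 was -1.16. The median difference over all transcripts was 0.14 per hour, so the typical mRNA also fell more slowly in OLs.

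The other 7 members did not pass. Smad1 differed by 0.22 ± 0.11 per hour (adjusted p = 0.116), Bmpr1a by 0.14 ± 0.10 and Smad4 by 0.10 ± 0.07. On the spike-in scale Tgfbr1 (0.01 ± 0.11) and Acvr2a (-0.02 ± 0.11) had nearly the same slope in both cell types. With libraries scaled to the 0 h median their differences were -0.24 ± 0.12 and -0.18 ± 0.14, and neither passed. Scaling each library to the 0 h median of its replicate moved the median difference of all transcripts to -0.03 and split the members: Smad2 still passed (0.52 ± 0.16, adjusted p = 0.0146), Smad3 did not (0.29 ± 0.12, adjusted p = 0.0685), and Smad5 passed with the opposite sign (-0.19 ± 0.06, adjusted p = 0.0197). The calls of Smad2 and Smad3 were both lost without OPC replicate 2 (adjusted p = 0.0641 and 0.0575) and without OL replicate 2 (0.140 and 0.0665), and that of Smad3 without OL replicate 1 (0.132).

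**Figure D5:**
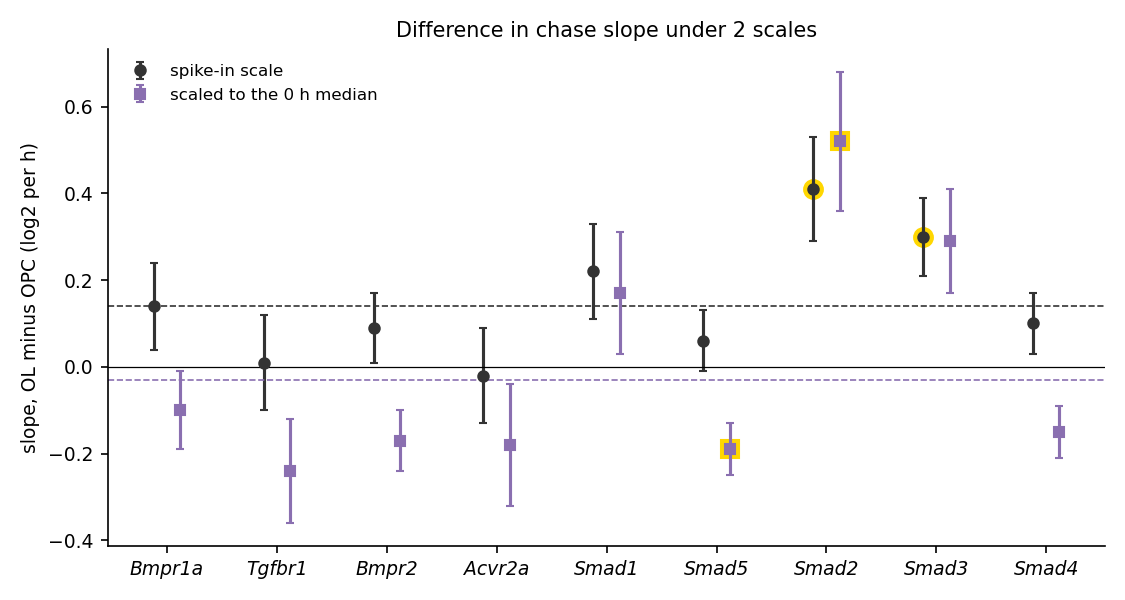
Difference in chase slope (OL minus OPC, log2 per hour, with SE bars) of 9 members on the spike-in scale (circles) and with libraries scaled to the 0 h median (squares). Dashed lines mark the medians of all transcripts (0.14 and -0.03), and yellow marks values with an adjusted p under 0.05, which were Smad2 on both scales, Smad3 on the spike-in scale and Smad5, with a negative difference, on the other.

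The study asked how the codons of an mRNA bear on its stability, with most attention to the phenylalanine codons UUU and UUC and the lysine codons AAA and AAG. Among the members, UUU made up 84.6% of phenylalanine codons in Smad4 (97.9th percentile of all transcripts), 76.2% in Bmpr2 and 70.0% in Acvr2a, but 26.7% in Smad3, 27.8% in Smad1 and 28.6% in Smad7. AAA made up 69.2% of lysine codons in Tgfbr1 (97.4th percentile) and 5.26% in Smad3 (3.20th percentile), where 1 of 19 lysine codons was AAA. The paired Smads thus differed in codon use, with UUU shares of 60.0% in Smad5 and 27.8% in Smad1 and of 46.2% in Smad2 and 26.7% in Smad3.

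The UUU share was set beside the change in half-life rank. Over the 9 members, the UUU share and the change in percentile (OL minus OPC) had Pearson's r = -0.73 and Spearman's rho = -0.83, and over 8079 transcripts r = -0.24 and rho = -0.26. Across the members the UUU share went with the OPC percentile (r = 0.66) and not with the OL percentile (r = 0.02), while over all transcripts it was the reverse (0.02 and -0.14). The length of the 3′ UTR had the same r of -0.73 with the change over the members (rho = -0.58) and r = 0.79 with the OPC percentile, and the AAA share had -0.28 with the change. Transcripts without an annotated 3′ UTR, Smad2 among them, entered with a length of 0. Smad2 also had the lowest mean OPC percentile of the members (12.9) and the largest rise (15.7 points). How far these values of r rest on it was not tested. Over all transcripts r with the change was -0.13 for 3′ UTR length and -0.26 for the AAA share. These are descriptions across genes, which are not independent replicates and share the same 5 replicates. They are part of 4 sequence features compared, the other being the G+C share at the wobble position of codons (r = 0.51 over the members and 0.33 over all transcripts).

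Of 86 other genes of the pathway in a list by role, 46 were listed in either cell type and 36 in both. At 0 h, 9 of the 36 were higher in OLs and 7 lower, beside 14.1% and 17.5% of all transcripts. In half-life 3 of 35 were longer and 1 shorter (3.39% and 0.148% of all). These include Ski (longer) and Usp9x (the shorter one), whose calls rest on values tied at the ceiling. None of the 35 passed after centring on the replicate median or with a replicate block. In chase slope 8 of 36 fell more slowly and 0 faster (27.5% and 0.232% of all), and 5 and 7 with libraries scaled to the 0 h median (8.78% and 21.4% of all). Neither Smad6 nor Smad9 was listed. Of the other receptors, Acvr1b, an activin type I receptor, was at 16.3, 10.9 and 16.1 FPKM in OPCs and at 11.6 and 17.1 FPKM in OLs. Bmpr1b, a further BMP type I receptor, was listed only for OLs (2.76 and 8.82 FPKM), and Tgfbr2, the partner of Tgfbr1, only for OPCs (3.54 to 3.97 FPKM), so the TGF-beta receptor pair was listed complete in OPCs alone.

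Among ligands, Tgfb2 was higher in OLs (16.7 and 18.7 against 4.36 to 5.18 FPKM, 3.18-fold, adjusted p = 0.00172) and Bmp7 lower (8.05 and 8.15 against 19.5 to 36.7 FPKM, adjusted p = 0.00289). Of the extracellular and membrane modulators, Rgma, a BMP co-receptor (log2 difference 0.92), and its receptor Neo1 (1.06) were higher, and Bmper (-1.05) and Fstl1 (-1.80) lower. The pseudoreceptor Bambi was listed for OPCs only, at 4.43 to 4.56 FPKM.

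Of the intracellular regulators of Smads, 5 of 16 were higher at 0 h and 3 lower, where 31.6% of all transcripts passed in either direction. Higher were Zeb2, a Smad-binding repressor (2.58, adjusted p = 0.000816), Zfyve16 (1.64), Skil (1.51), the ubiquitin ligase Nedd4l (1.32) and Pmepa1 (1.24). Lower were Tgif2 (-2.70), Zeb1 (-1.34) and Ski (-0.81). Ski and Skil, a pair of related corepressors of Smads, thus went in opposite directions. In half-life, Ski was at 1.76, 1.96 and 1.96 h in OPCs and reached the 6 h ceiling in each OL replicate (a fitted change of 1.67, and 0.96 when refitted without 6 h), and Ppm1a, a phosphatase of Smads, went from 1.96 to 2.31 h to 4.30 and 4.34 h (1.03, adjusted p = 0.0325, and from 0.0632 to 0.126 without OPC replicate 2 or 3 or either OL replicate, but 0.22 with adjusted p = 0.741 when refitted without 6 h). Usp9x, which removes ubiquitin from Smad4, reached the ceiling in each OPC replicate and was at 3.96 and 4.27 h in OLs (a fitted change of -0.54, and -2.03 with a ceiling of 24 h). For Ski and Usp9x a p is not given, because it rests on tied values at the ceiling and, for Ski, at the shared 1.96 h, with little or no spread.

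Of the target genes of the pathway, the Id genes, chosen after their values were seen, stood far apart in the 2 OL replicates. Id1, a direct target of BMP-type Smads, was at 5.57 FPKM in OL replicate 1 and at 95.2 FPKM in OL replicate 2, and Id3 at 27.5 and 204 FPKM beside 162 to 219 FPKM in OPCs. Id2 and Id4 also stood higher in OL replicate 2 (85.5 against 36.3 and 25.8 against 13.1 FPKM), and Id1, Id2 and Id4 were not listed for OPCs. Of the other listed targets, Hey1, Msx1, Klf10 and Junb were also higher in that replicate. Cdkn1a was close in both (186 against 172 FPKM), and Cdkn2b was lower (3.75 against 5.07 FPKM). How many of all transcripts stood as far apart was not counted. Of the members, Bmpr1a (67.5 against 42.1 FPKM), Smad1 (17.9 against 11.6), Smad2 (25.4 against 17.8) and Smad3 (16.9 against 11.2) were higher in OL replicate 2 than in replicate 1. Smad4, Smad5, Bmpr2 and Acvr2a were higher by a smaller factor. Tgfbr1 was at 25.1 FPKM in both, and Smad7 was lower (11.3 against 18 FPKM). Oligodendrocyte markers summed to 2744 FPKM in OL replicate 2 and to 5996 FPKM in replicate 1, and astrocyte markers to 386 and 267 FPKM, and their part in these differences was not tested. Of the 6 targets listed for both cell types, Hey1 was higher in OLs (1.42, adjusted p = 0.00886) and Klf10, a TGF-beta target, lower (-1.81, adjusted p = 0.00112). Klf10 also had a longer half-life in OLs (1.41 and 1.5 h, against 0.510 to 0.560 h in OPCs, adjusted p = 0.0117).

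The members' patterns over the 25 libraries were close to those of many mRNAs, since all libraries share the decline of the chase. By Pearson's correlation of log2(FPKM + 1), the nearest transcript was Zfp275 for Smad5 (r = 0.99), Fem1b for Smad4 (0.98), Rbm12 for Tgfbr1 (0.98), Akap11 for Bmpr1a (0.98) and Arfgap2 for Smad3 (0.98). It was Phf23 for Smad1 (0.97), Asap1 for Smad2 (0.96), Ipo7 for Bmpr2 (0.96) and Maml2 for Acvr2a (0.96). Within the members, Smad4 and Smad5 were nearest to each other (0.98), and 0.0122% and 0.0367% of all transcripts were nearer to them. Smad2 and Smad3 were also nearest to each other (0.93), but 2.32% and 5.26% of all transcripts were nearer to them. Bmpr2 had the lowest best match with another member (0.87, with Smad4).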

How the data were processed

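Reads were trimmed by the authors (fastx_clipper) and mapped with HISAT2 2.1.0 (GRCm38), and FPKM came from StringTie 1.3.5 and ballgown over canonical coding transcripts of GENCODE vM9. The values of each time point were scaled by the authors to 5-EU-labelled LYSa and luciferase spike-ins, so an error in 1 factor moves all transcripts of a library. How reads shared by related genes (Smad1 and Smad5, Smad2 and Smad3) were assigned is not given in the sources used here. Half-lives in the deposited tables (hours) result from a least absolute deviations fit, and values at the ceiling were set here to 6 h. Tests were two-sided limma fits (limma 3.58.1, R 4.3.3) with Benjamini-Hochberg adjustment over all transcripts, on log2(FPKM + 1) for levels and slopes (with a variance trend), on log2 half-lives and on percentiles. All slope fits took the time points of a replicate as independent libraries. Sequences came from GENCODE M21 (GRCm38), to which all 10104 transcripts were matched by identifier. All members are named with their values, pathway genes where they passed at 0 h or in half-life or stood alone in their role, and the nearest pattern by correlation. The exceptions are Acvr1b, Bmpr1b, Tgfbr2, Bambi and the Id genes, chosen after their values were seen. The members and lists were chosen with earlier results of these data known. Replicates are biological replicates according to the study's methods.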

Additional observations from a re-analysis of the deposited data

Results flagged for a closer look

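The chase slope of Smad2 and Smad3 differed between OPCs and OLs by a test of the difference itself, which took the 25 libraries as independent. In half-life, with 1 value per replicate, neither passed (adjusted p = 0.0897 and 0.168, limma). Smad2 fell more slowly in OLs by 0.41 per hour on the log2 scale (adjusted p = 0.0105, limma) and Smad3 by 0.30 per hour (adjusted p = 0.0108), while 27.5% of all transcripts passed in the same direction. Both calls were lost without OPC replicate 2 (adjusted p = 0.0641 and 0.0575) and without OL replicate 2 (0.140 and 0.0665), and that of Smad3 also without OL replicate 1 (0.132). Both OL replicates retained more of each mRNA at 4 h and 6 h than any OPC replicate, as they did for 48.7% and 48.9% of all transcripts. Each was listed at 0 in OPC replicate 2 at 6 h, Smad2 also in replicate 1. The part of these late zeros in the difference was not tested. Groups of 2 and 3 replicates are too small for a test of single outlying samples.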

How the results depend on the processing

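Of 520 member values under an alternative setting, 460 kept their direction and their side of the threshold. With the direction kept, 14 lost a call and 2 gained one. The other 44 changed sign, whatever their side of the threshold. Among those 44, with libraries scaled to the 0 h median, Smad4 and Bmpr1a in OPCs and Bmpr2 in OLs also lost their call of a decline. Smad5 gained one in slope difference. With libraries scaled to the 0 h median, 4 members passed in OPCs (3 falling and 1, Bmpr2, rising) and 4 in OLs (all falling). The sign then turned for Smad4 (0.03), Bmpr1a (0.01) and Bmpr2 (0.17) in OPCs, for Bmpr2 (0.02) in OLs, and in the slope difference for Smad4 (-0.15), Smad5 (-0.19), Bmpr1a (-0.10), Bmpr2 (-0.17) and Tgfbr1 (-0.24). Centring half-lives turned Smad1 (-0.15), Smad4 (-0.50), Smad5 (-0.88) and Bmpr1a (-0.25), and refitting without 6 h turned Smad5 (-0.21) and Bmpr1a (-0.15). A pseudocount of 0.1 turned the slope differences of Tgfbr1 (-0.0033) and Acvr2a (0.05). The cause was not tested.

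The replicate block left the number of members that passed as it was (0 at 0 h, 0 in half-life, 0 in rank, 9 and 10 in the declines and 2 in slope difference) and turned Smad1 at 0 h (0.01), Tgfbr1 in half-life (0.12) and Bmpr1a in rank (2.15). For levels, half-lives and ranks the block joined OPC and OL replicates of the same number, which may not be those that share cells. Deviations of same-numbered OPC and OL replicates had correlations of 0.0589 and 0.0102 at 0 h and of -0.00162 and -0.105 in half-life. The deviations of the 2 OL replicates mirror each other, so the correlations of a measure are not independent, and other pairings were not tried. The main tests did not take the numbers as pairs.

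Leaving out 1 replicate in turn, the members that passed ranged from 0 to 1 at 0 h, from 0 to 1 in half-life and from 0 to 2 in slope difference. Values that changed sign ranged at 0 h from -0.37 to 0.21 (Smad1), -0.13 to 0.55 (Smad2), -0.11 to 0.44 (Smad3), -0.23 to 0.06 (Smad4), -0.10 to 0.10 (Smad5), -0.29 to 0.32 (Bmpr2) and -0.04 to 0.74 (Acvr2a). In half-life they ranged from -0.25 to 0.30 (Smad5) and -0.34 to 0.17 (Tgfbr1), and in rank from -3.22 to 8.31 (Smad1), -3.61 to 19.9 (Smad3) and -8.68 to 7.43 (Bmpr1a). The slope differences of Tgfbr1 (-0.04 to 0.05) and Acvr2a (-0.07 to 0.03) also crossed 0. Over all transcripts, these fits called from 483 to 1400 higher and from 700 to 1512 lower at 0 h, and from 681 to 2382 slower in OLs in slope.

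Over all transcripts, the half-life comparison called 275 longer and 12 shorter, but 0 and 1 after centring, 7 and 6 without 6 h, 152 and 6 with a 24 h ceiling, and 0 under the replicate block. The rank comparison called 15 higher and 8 lower, but 55 and 31 with half-lives refitted, 43 and 29 with a mean 0 h FPKM of at least 5, and 0 without 6 h, with a 24 h ceiling, under the block or without any 1 replicate. Rounding half-lives to 0.001 h before ranking, chosen after seeing the data, gave 56 and 31. Scaling to the 0 h median turned the slope difference from 2252 slower and 19 faster in OLs to 718 and 1752, and the decline from 6972 falling and 420 rising to 2106 and 2854 in OPCs and from 6345 and 100 to 1464 and 2725 in OLs. The depth behind each value is unknown, and values listed at 0 late in the chase limit the OPC slopes.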
